A study of Mus musculus with 8 samples.

Results

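Vanins and the enzymes of coenzyme A (CoA) synthesis were examined in mouse liver as a set of 10 genes. The genes were chosen by their symbols, with earlier results of the V227A and wild-type comparison already known, *Vnn1* among them. The choice is therefore not independent of that comparison. All 10 were found among the 27179 genes of the deposited table. They comprise the pantetheinases *Vnn1* and *Vnn3*, the pantothenate kinase family *Pank1*, *Pank2*, *Pank3* and *Pank4*, the later synthesis enzymes *Ppcs*, *Ppcdc* and *Coasy*, and the CoA-degrading hydrolase *Nudt7*.

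The libraries came from livers of adult male C57BL/6NHsd mice that had been fasted for 6 h, 4 of them wild-type and 4 homozygous for the V227A substitution in PPARɑ, a nuclear receptor that drives the hepatic response to fasting. The allele was made by base editing in zygotes, and the colony descends from a single heterozygous founder backcrossed to C57BL/6NHsd. It is a germline change, so every tissue of the mutant mice carries it. The values used here are the average log2 CPM (reads of a gene scaled to the size of its library, on a log2 scale) over all 8 libraries, with both genotypes in the same average. A level in V227A, a level in wild-type, a spread over mice and a test between them are therefore not given for any gene.

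CoA carries acyl groups in fatty acid oxidation, lipid synthesis and the citric acid cycle. Cells build it from pantothenate (vitamin B5). Pantothenate kinases catalyse the rate-controlling first phosphorylation. PPCS then joins the product to cysteine, PPCDC removes a carboxyl group to give 4'-phosphopantetheine, and the bifunctional COASY completes the molecule. Degradation runs the other way. NUDT7, a peroxisomal Nudix hydrolase, cleaves CoA to a phosphopantetheine product, and vanins hydrolyse pantetheine to pantothenate, which can be used again, and cysteamine. *Vnn1* is a known PPARɑ target in liver.

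Most of the kinase genes share a feature that was not used to choose them. *Pank1*, *Pank2* and *Pank3* each host a microRNA hairpin inside intron 5 of their longest coding transcript, on the same strand and outside every annotated exon, and *Pank4* hosts none. The mature 3p sequences are shown because they share a seed (bases 2 to 8, in capitals), which only these 2 of the 1679 mature names in the RefSeq table for GRCm38 have.
mmu-miR-107-3p (in *Pank1*): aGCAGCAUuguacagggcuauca
mmu-miR-103-3p (in *Pank2* and in *Pank3*): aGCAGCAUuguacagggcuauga
The 2 sequences differ at 1 position, G22C, counted from the 5′ end with the base of miR-103-3p first. The 5p arms share the seed GCUUCUU. The hairpins lie at chr19:34820687-34820773 on the minus strand, at chr2:131288052-131288137 on the plus strand and at chr11:35782396-35782481 on the plus strand. The rows of *Mir107*, *Mir103-2* and *Mir103-1* in the deposited table were at 0 reads. Poly-A libraries do not capture mature microRNAs, so these rows say nothing of the microRNA levels. The hairpins lie outside every annotated exon, so these rows also do not test whether reads of the host genes were shared with them.

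All 10 genes had reads, compared with 69.7% of the genes of the table. All 10 also lay above the median gene with reads, whose average log2 CPM was 1.89. On that scale the 10 genes spanned 3.72 to 9.09, with a median of 5.23. Their summed level was 1120 CPM, or 0.112% of all reads, and *Nudt7*, *Pank1* and *Coasy* together made up 81.4% of that sum. In whole liver, fewer cells of a type and less RNA per cell cannot be told apart. The precision differs among the genes, since the estimated depth ran from 361.2 reads per library for *Pank4* to 14979 for *Nudt7*.

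**Figure D1:**
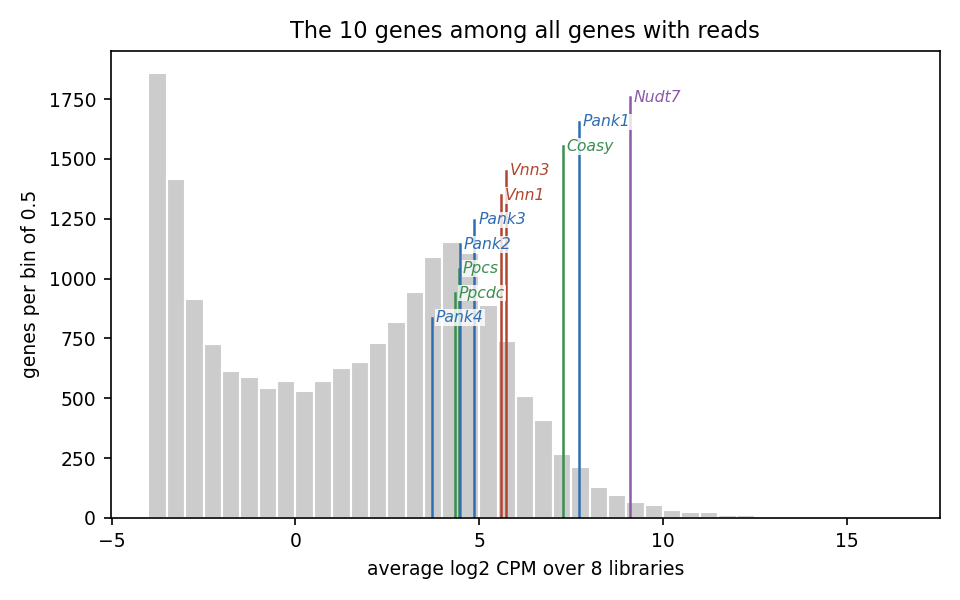
Histogram of the average log2 CPM of the 18937 genes with reads (x axis, bins of 0.5; y axis, genes per bin), with a coloured line at the level of each of the 10 genes; line heights carry no value. *Nudt7* (9.09), *Pank1* (7.72) and *Coasy* (7.28) stand in the upper tail, and *Pank4* (3.72) is the lowest of the 10.

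Long transcripts collect more reads, so levels of different genes were compared as CPM per kb of merged exons. On this scale the order was *Nudt7*, *Coasy*, *Vnn3*, *Pank1*, *Vnn1*, *Ppcs*, *Pank2*, *Pank3*, *Pank4* and *Ppcdc*, from 97.04 to 3.508 CPM per kb. The median gene with reads had 1.07 CPM per kb, and all 10 were above it. When the longest single transcript gave the length instead, the first 6 kept their places. Of the last 4, *Pank4* also kept its place, and *Ppcdc* moved from the last place to the 7th. No spread over mice is known, so whether neighbours in this order differ could not be tested.

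**Figure D2:**
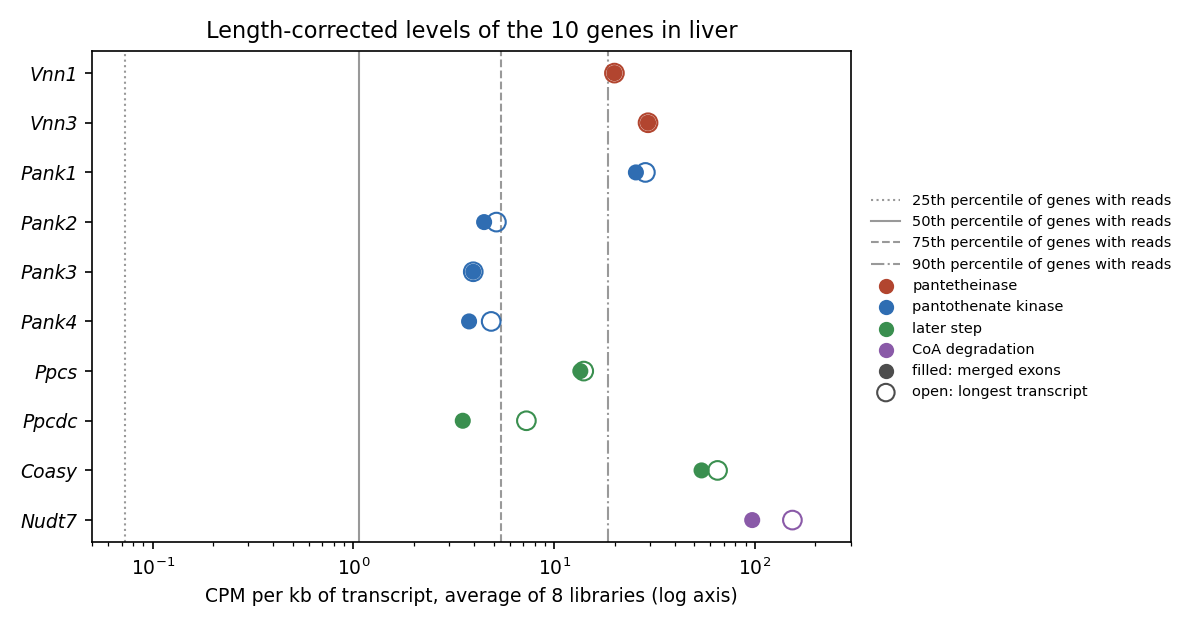
Level of each of the 10 genes in CPM per kb (log x axis, average of 8 libraries), with filled points for the length of merged exons, open points for the longest transcript, colours for roles and vertical lines for percentiles of all genes with reads. The percentiles were taken with merged exons as length. By that length *Nudt7*, *Coasy*, *Vnn3*, *Pank1* and *Vnn1* lie above the 90th percentile (18.6 CPM per kb). Their open points lie above the same line, but percentiles for the longest transcript were not drawn.

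The vanins stood close to each other. *Vnn1* encodes vanin-1, a membrane-anchored pantetheinase, and had an average log2 CPM of 5.60, from an estimated 1326 reads per library. *Vnn3*, its paralog, had 5.74, from 1462 reads. Per kb the levels were 19.98 CPM for *Vnn1* and 29.38 CPM for *Vnn3*, above 90.5% and 93% of genes with reads. *Vnn3* thus made up 59.5% of the length-corrected level of the pair. Because both genotypes are in the average, this share need not hold in either of them. Biotinidase (*Btd*), an enzyme of the same protein family that recycles the vitamin biotin, had 28.66 CPM per kb.

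The vanin genes are neighbours on chromosome 10 of GRCm38. *Vnn3* (ENSMUSG00000020010) occupies chr10:23851462-23869843 and *Vnn1* (ENSMUSG00000037440) chr10:23894688-23905343. Both are on the plus strand, have 7 exons, and are separated by 24844 bp with no annotated gene between them. Upstream of *Vnn3*, the nearest gene *Slc18b1* had an average log2 CPM of 1.49. Downstream of *Vnn1* lie genes of trace amine-associated receptors, which serve mainly as olfactory receptors. Of the 8 in the table within 100000 bp, 7 had 0 reads, and *Taar2* had an estimated 0.125 reads per library. *Rps12*, farther upstream than *Slc18b1*, had an average log2 CPM of 2.12. On this scale, which is not corrected for length, the genes around the vanins were thus lower than both. Their levels per kb were not compared. Whether the sequences of these surrounding genes also occur in other genes, which can lower a count, was not checked.

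**Figure D3:**
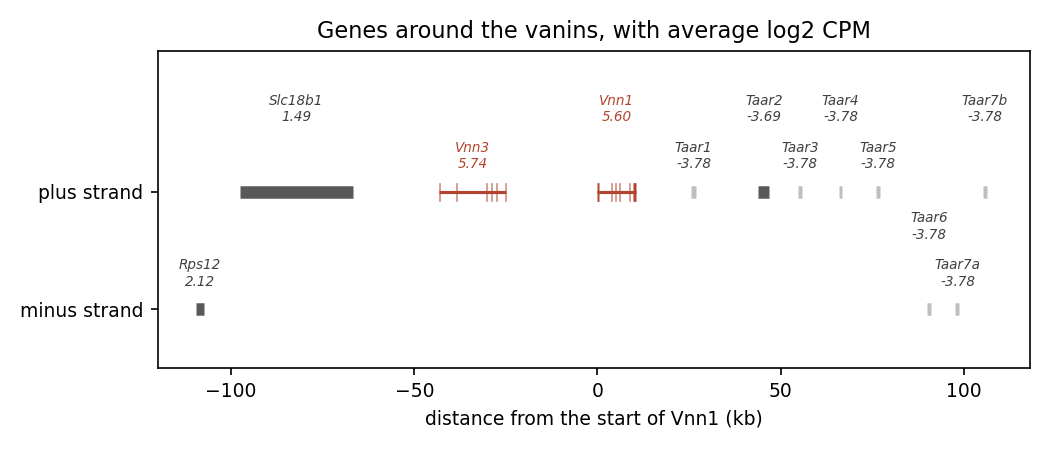
Protein-coding genes within 100000 bp of the vanins by distance from the start of *Vnn1* (x axis, kb) and strand (y axis), each with its average log2 CPM. Red marks the exons of *Vnn3* (5.74) and *Vnn1* (5.60), dark grey other genes with reads and light grey genes with 0 reads, which carry the lowest value of the table (-3.78).

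Reads of the pair could be told apart by sequence. Their coding sequences, of 1536 bases (512 codons) for *Vnn1* and 1500 bases (500 codons) for *Vnn3*, were identical at 68.5% of aligned bases, with a longest identical run of 12 bases. No run of 50 bases in either gene's transcripts occurred in another gene of GENCODE vM21. *Vnn1* was also measured by qRT-PCR, and the primers are shown, 5′ to 3′, because they fix which part of the gene that assay reads.
*Vnn1* forward: tatgtcttccctgaagtgtt
*Vnn1* reverse: cccagtccttcccatac
The forward primer lies in coding exon sequence at chr10:23903500-23903519 (exon 6 of 7) and the reverse primer at chr10:23904555-23904571 (exon 7), on the minus strand. Together they span an intron and give a product of 151 bp from the coding transcript. Neither matched any other annotated gene, and the fewest mismatches to *Vnn3* were 7 for the forward and 5 for the reverse primer. The qRT-PCR values were not analysed here.

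Among the pantothenate kinases *Pank1* stood apart. Its average log2 CPM was 7.72, from an estimated 5806 reads per library, and 586th in rank among the 18937 genes with reads. The corresponding values were 4.87 for *Pank3*, a cytosolic kinase, 4.47 for *Pank2*, whose product is targeted to mitochondria in humans, and 3.72 for *Pank4*. PANK4 is not an active pantothenate kinase and carries a phosphatase domain. Per kb, *Pank1* had 25.56 CPM, and the others had 4.481 (*Pank2*), 3.956 (*Pank3*) and 3.771 (*Pank4*). *Pank1* thus made up 67.7% of the length-corrected level of the family, and 67.1% with the longest transcript as length. Its level per kb was 5.70, 6.46 and 6.78 times that of *Pank2*, *Pank3* and *Pank4*.

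*Pank1* (ENSMUSG00000033610) lies at chr19:34806940-34879455 on the minus strand, and 3 of its 4 annotated transcripts are coding. *Pank2* (ENSMUSG00000037514) is at chr2:131262495-131299188, *Pank3* (ENSMUSG00000018846) at chr11:35769484-35791285 and *Pank4* (ENSMUSG00000029056) at chr4:154964123-154980938, all on the plus strand. The coding sequences of *Pank1* and *Pank2* were the most alike of the family, identical at 75% of aligned bases with a longest shared run of 28 bases. *Pank1* and *Pank4* were the least alike, at 64%. *Pank4* is also built differently, with 20 exons and 820 codons in its longest coding transcript, compared with 7 exons and 370 to 548 codons in the others. No run of 50 bases was shared between any of the 10 genes.

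The level of *Pank2* is uncertain, because its reads could be shared with overlapping genes. Its exons overlap those of *Rnf24*, on the opposite strand, by 1125 bp, and *Rnf24* had an average log2 CPM of 2.29. The libraries were stranded, but the strand setting of the counting is not given in the sources used here. In addition, 6.02% of the runs of 50 bases in *Pank2* transcripts also occurred in *Gm14233*, an overlapping processed transcript on the same strand that was matched to no row of the table.

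Of the later steps, *Coasy* was the highest. It had an average log2 CPM of 7.28, from an estimated 4276 reads per library. *Ppcs* had 4.44, from 595.7 reads, and *Ppcdc* had 4.35, from 559.3 reads. Per kb the levels were 54.28 CPM for *Coasy*, 13.51 CPM for *Ppcs* and 3.508 CPM for *Ppcdc*. *Coasy* was above 95.7% of genes with reads on this scale and had 2.12 times the level of *Pank1*.

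*Coasy* (ENSMUSG00000001755) is a compact gene of 4055 bp at chr11:101082565-101086619 on the plus strand, with 9 exons in its longest coding transcript. *Ppcs* (ENSMUSG00000028636) spans 3891 bp at chr4:119418530-119422420, and *Ppcdc* (ENSMUSG00000063849) 55030 bp at chr9:57385095-57440124, both on the minus strand. The low value of *Ppcdc* depends on the length used. It has 14 annotated transcripts, whose merged exons come to 5803 bp against 2797 bp for the longest single transcript, and with the latter its level was 7.278 CPM per kb. Of the runs of 50 bases in *Ppcdc*, 9.08% also occurred in transcripts of other genes, 28 of them, so part of its reads may not map to it alone. For *Ppcs* and *Coasy* the number of shared runs was 0.

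*Nudt7* was the most abundant of the 10 genes on every scale. Its average log2 CPM was 9.09, from an estimated 14979 reads per library, which placed it 224th among the 18937 genes with reads. It made up 48.7% of the summed CPM of the set. Per kb it had 97.04 CPM, 1.79 times *Coasy*, 3.80 times *Pank1* and 4.86 times *Vnn1*. The gene (ENSMUSG00000031767) lies at chr8:114133557-114154739 on the plus strand, and its longest coding transcript has 4 exons and 260 codons. For comparison, *Ppara* itself had an average log2 CPM of 8.37 and 86.46 CPM per kb.

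Other Nudix hydrolases that cleave CoA were lower. *Nudt19*, also peroxisomal, had 17.91 CPM per kb and *Nudt8*, which is mitochondrial, had 16.28 CPM per kb. The level of *Nudt7* was 5.42 and 5.96 times theirs, and 7.37 and 9.01 times with the longest transcript as length.

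A wider group of 18 genes of pantothenate, CoA and cysteamine metabolism was set beside the 10 genes. Of these, 17 had reads and 16 lay above the median gene with reads. In the transport group of 3, all were above that median, from the vitamin transporter *Slc5a6* (3.567 CPM per kb) to the mitochondrial CoA carrier *Slc25a42* (17.50 CPM per kb). The group of 5 that attach phosphopantetheine to proteins or carry it ran from *Aldh1l2*, with an estimated 3.104 reads per library, to its cytosolic paralog *Aldh1l1*, with 373.9 CPM per kb. These folate enzymes have a carrier domain that holds the phosphopantetheine arm.

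The 7 genes of cysteamine and taurine metabolism, into which the second product of vanins feeds, had a median of 42.61 CPM per kb over the 6 with reads. The highest was *Cdo1*, the cysteine dioxygenase that supplies taurine synthesis, at 1099 CPM per kb. The lowest of the 6 was *Ado*, at 2.967 CPM per kb, above 65.4% of genes with reads. *Gadl1* had 0 reads over the 8 libraries, which allows a level of up to 0.0136 CPM (3 reads in all, counting error only).

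**Figure D4:**
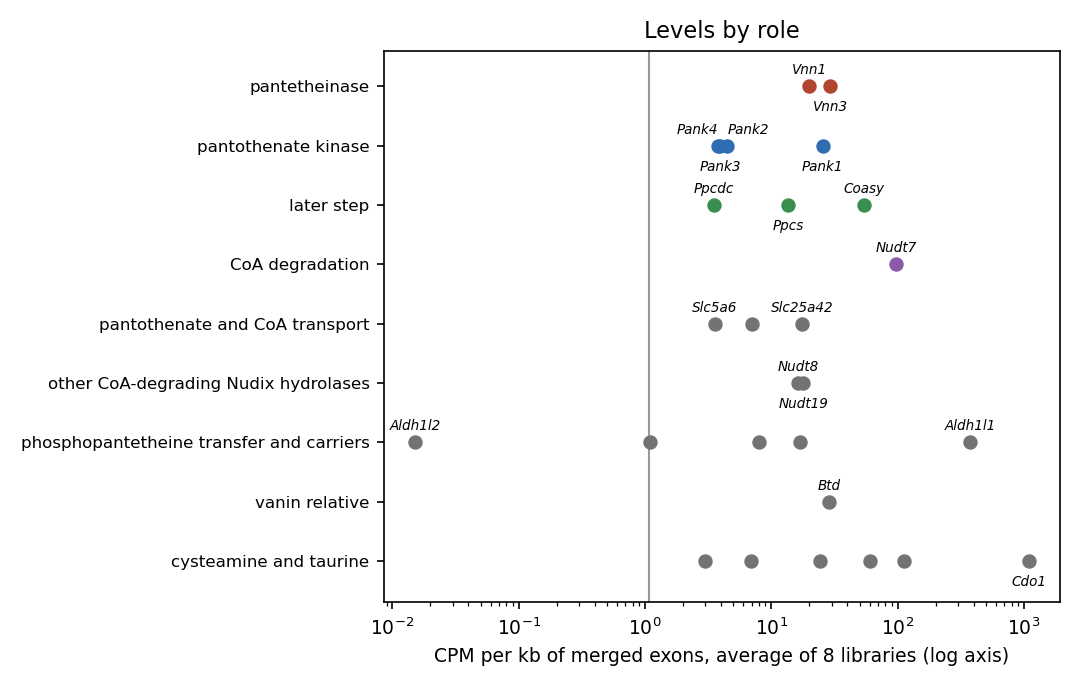
Level per kb of merged exons, by role (log x axis, average of 8 libraries). The 10 genes are in colour and the 17 associated genes with reads in grey. Names are given for all 10 genes and for the ends of each other group, except the low end of cysteamine and taurine. The line marks the median gene (1.07 CPM per kb). *Nudt7* (97.04) is the highest of the 10, and *Cdo1* (1099) and *Aldh1l2* (0.01506) mark the extremes of the associated genes.

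The tissue label was checked against markers. All 8 hepatocyte markers had average log2 CPM between 10.85 (*Cps1*) and 16.09 (*Alb*), with a summed level of 111820 CPM. Markers of other cells were far lower, with sums of 159.9 CPM over 5 Kupffer cell genes, 117.3 CPM over 5 endothelial genes, 138.5 CPM over 5 stellate cell genes, 35.19 CPM over 5 cholangiocyte genes and 226.8 CPM over 3 red blood cell genes. T and B cell genes summed to 2.577 CPM and neutrophil genes to 1.936 CPM. Vanins are also expressed in kidney and intestine, so markers of these tissues were read as well. All 4 kidney tubule markers were at or near 0, with a sum of 0.0547 CPM and *Aqp2* at 0 reads. Of the 4 intestinal markers *Cdx2* was at 0 reads, while *Fabp2*, which liver also expresses, was at 6.43 on the log2 CPM scale. Adipose genes summed to 7.137 CPM, and 3 of 4 pancreas genes were at 0 reads, with *Cela1* at 4.90 on the log2 CPM scale.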

How the data were processed

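Poly-A RNA of 8 livers was sequenced as stranded paired-end libraries. The authors trimmed reads with Trimmomatic, checked them with FastQC, aligned them to GRCm38 with STAR, counted them with featureCounts and fitted edgeR. Versions, annotation, strand setting and covariates are not given in the sources used here. The authors deposited the average log2 CPM over all 8 libraries as 1 value a gene. It was read as the log2 of an average level over the libraries, not as a mean of log2 values per library. The table's other 4 columns of values hold the authors' own genotype comparison (fold change, F statistic, p-value and FDR) and were not used. The planned test between genotypes needs values per library, so it was not run.

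The lowest value (-3.78) was shared by 8242 genes, which were read as having 0 reads. Assuming the default prior count of 2 in the authors' edgeR, the lowest value implies 27473997 reads in an average library after normalization, and CPM without the prior and reads per library were estimated from it. As a check, 918 genes nearest the floor had estimated totals of 0.984 to 1.02 reads. The depth of each library is unknown, so no interval is given.

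Exon lengths, coordinates and transcripts came from GENCODE vM21 (GRCm38), with a length for 94.8% of genes with reads. Coding sequences were aligned globally with Biopython 1.88 (match 2, mismatch -1, gap opening -5 and extension -0.5), and runs of 50 bases were compared over all transcripts. Python 3.11.15, pandas 2.3.3, numpy 2.4.6 and matplotlib 3.10.9 were used.

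The genes and lists were chosen with earlier results of these data known. The text names all 10 genes, *Ppara*, and the highest and lowest gene of each associated list. *Slc18b1*, *Rps12*, *Taar2*, *Rnf24* and *Gm14233* were named after their values were seen, for their position. *Ado* was also named after its value was seen, as the lowest gene with reads in its list.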

Additional observations from a re-analysis of the deposited data

How the results depend on the processing

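All 10 genes kept reads when an average log2 CPM of at least 0, or at least 10 estimated reads per library, was required. All 10 stayed above the median gene when it was taken over genes with a symbol, and, per kb, with the longest transcript as length or among protein-coding genes only. Estimated reads without the prior count also gave 10, but they keep the order of the genes, so that setting could not change the count. Against the median of genes with an average log2 CPM of at least 0 (3.94), 9 of 10 were above and *Pank4* (3.72) was not. No paired analysis was possible because the values used are averages over both genotypes. For the same reason leaving out single mice, another normalization, another count model and a fit without a filter, all planned for the genotype comparison, were not run. The averages also hide any library that stands apart.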
